A study of Mus musculus with 2 samples.

Results

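The genes of pre-mRNA splicing factors were examined for occupancy by nuclear respiratory factor 1 (NRF1) in mouse skeletal muscle. They were chosen by gene symbol: the SR proteins (Srsf), the small nuclear ribonucleoprotein (snRNP) proteins (Snrp, Snrnp), Sf3a and Sf3b, Prpf, hnRNP, U2af and Lsm proteins, together with Txnl4a, Txnl4b, Safb, Safb2, Cdc5l and Sart1. This gave 95 of 21000 protein-coding RefSeq genes. NRF1 was profiled by chromatin immunoprecipitation followed by sequencing (ChIP-seq), which reports the DNA fragments pulled down with a protein as peaks over a control. Both libraries of the series carry the same labels, namely skeletal muscle, wild-type genotype and NRF1 antibody, with no treatment, and they form 1 group. The labels give no age, sex or individual muscle, and the study worked with male mice. A list in the study's reporting summary gives the library of replicate 2 as input DNA, which goes against its label. A single list of 3226 peaks was deposited, whose peak names carry the title of the library of replicate 1, so no value below has a replicate error, and the read depth is unknown. Whole muscle holds other cells besides fibres, and a peak list holds no expression by which the tissue could be checked.

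Splicing removes introns from pre-mRNA. The spliceosome is assembled from the U1, U2, U4, U5 and U6 snRNPs, most of which carry a ring of Sm proteins, whereas U6 carries a ring of Lsm proteins. U1 marks the 5′ splice site, U2 and the U2af proteins the branch point and the 3′ splice site, and the U4/U6.U5 tri-snRNP brings in the parts that are rearranged into the active enzyme. SR proteins and hnRNPs bind the pre-mRNA itself and influence which sites are used. NRF1 is a DNA-binding activator known for promoters of nuclear genes that serve the mitochondria, and it binds as a dimer to a GC-rich palindrome in CpG-rich promoters.

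The palindrome searched was GCGCATGCGC, which reads the same on both strands, with at most 1 mismatch. The sites below were chosen to show the exact palindrome under a strong and a weak promoter peak (Snrnp70 and Srsf11), and other forms under strong peaks and at the U2af genes. They are followed by a promoter copy with no peak (Sf3b2) and an exact copy under a peak past the promoter (Lsm12). Each is given 5′ to 3′ on the strand of its gene, with the 10 bases matched to the palindrome in capitals, from the mm10 assembly (GRCm38).
Snrnp70 (chr7:45395784-45395813, minus strand): tacagttttgGCGCATGCGCagtgcccctg
Srsf11 (chr3:158031757-158031786, minus strand): cgggatatggGCGCATGCGCgggcgggcgt
Safb (chr17:56584821-56584850, plus strand): cgacagtgatGCGCAGGCGCacgacctgta
Srsf2 (chr11:116853221-116853250, minus strand): gccgcgcggtGCGCAGGCGCacctgggagg
U2af1 (chr17:31658868-31658897, minus strand): gccaaggagtGCGCAGGCGCcagggtaggg
Sf3a2 (chr10:80798675-80798704, plus strand): cgtcggtcgtGCGCACGCGCgcggcgaaac
Sart1 (chr19:5388820-5388849, minus strand): ctctacaggtGCGCGTGCGCagagaccagt
U2af2 (chr7:5061239-5061268, plus strand): aggagatcggGCGCACGCGCaatgtggatt
U2af1l4 (chr7:30563184-30563213, plus strand): gctacgttgtACGCATGCGCtcccagaaaa
Srsf9 (chr5:115327047-115327076, plus strand): cccgccctctGCGCAAGCGCacctcgcggc
Sf3b2, no peak (chr19:5295581-5295610, minus strand): cctctagatgGCGCATCCGCaaactacaac
Lsm12, past the promoter (chr11, site from 102184945 to 102184954, minus strand): ggtgccccggGCGCATGCGCatggccgtga

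The question put to the list was which splicing factor genes carried NRF1 at their promoter. Promoters were taken from 1000 bp upstream to 100 bp downstream of each known RefSeq start, and a promoter peak was one with its summit inside. Of the 95 genes, 43 had a promoter peak and 52 did not, a share of 45.3% (Wilson 95% interval 35.6 to 55.3%, which covers counting error over genes only). Over all 21000 protein-coding genes the share was 13.4%. Among the genes added by name rather than by family symbol, all but Txnl4b had a promoter peak, which raised the share of the set. Splicing factor genes more often had a CpG-rich start (89.5% against 49.5% of all genes), that is, at least 55% GC and an observed to expected CpG ratio of at least 0.65 within 200 bp of a start. Among genes with such a start, 41 of 85 splicing factor genes had a peak, or 48.2%, against 24.3% of all 10394. Of the 10 splicing factor genes without one, Hnrnpa1 and Snrpn had a peak, or 20% (Wilson 95% interval 5.67 to 51%), against 2.69% of all 10606 such genes.

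**Figure D1:**
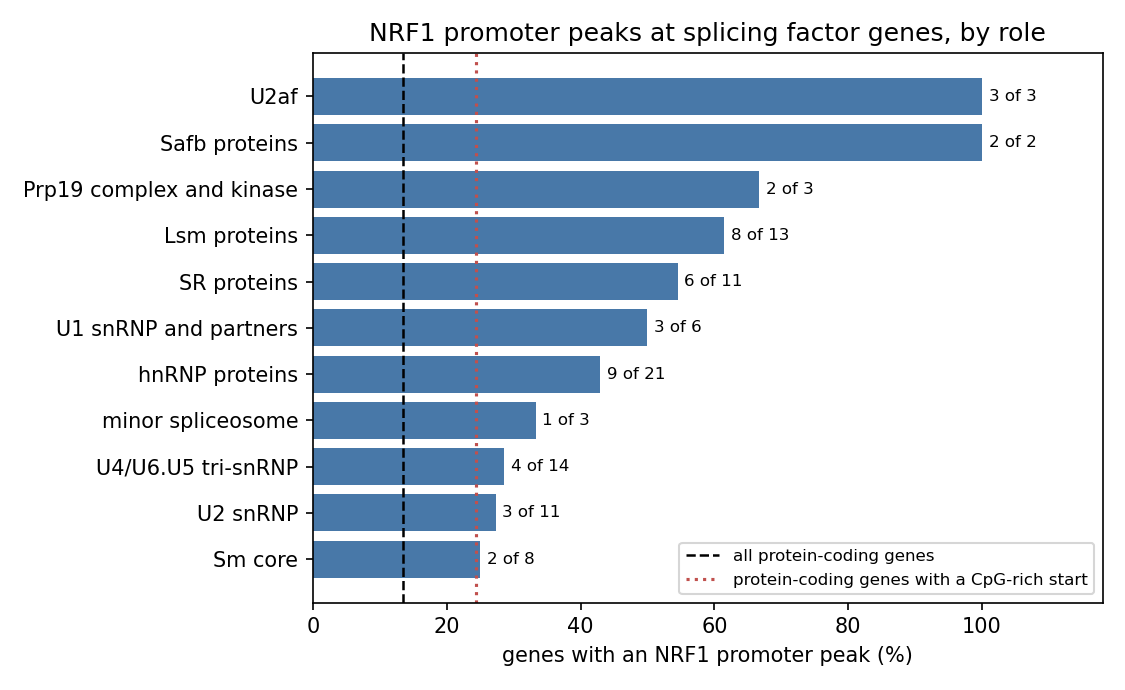
Bars give the percentage of splicing factor genes with an NRF1 promoter peak in each role group, with the numbers of genes beside them. The dashed line is the share of all protein-coding genes, 13.4%, and the dotted line that of genes with a CpG-rich start, 24.3%; all U2af and Safb genes had a peak, and Sm core genes had the lowest share (2 of 8).

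The 43 genes were served by 45 promoter peaks. Safb and Safb2 shared 1 peak, and Hnrnpl, Lsm1 and Srsf2 had 2 each. Fold enrichment, the authors' ratio of summit signal over control background, had a median of 13.3 at these peaks, with quartiles of 8.77 and 19.6 and extremes of 4.94 and 49.9. At all 2607 promoter peaks the median was 11.1, with quartiles of 7.9 and 16.4. The upper quartile of all promoter peaks was passed by 16 of the 45. Of the 10 strongest promoter peaks in the list, 2 lay at splicing factor genes, and of the 100 strongest, 3 did. The 2 were the peaks of Txnl4a, ranked 1, and of Safb and Safb2, ranked 4, all genes added by name. The other was that of Snrnp70, ranked 48, from a symbol family. Members were chosen with earlier results of these data known, so these ranks describe the chosen set only. Peaks of splicing factor genes had a median width of 330 bp, against 296 bp for all promoter peaks. Their median −log10 q was 29, against 25.3.

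**Figure D2:**
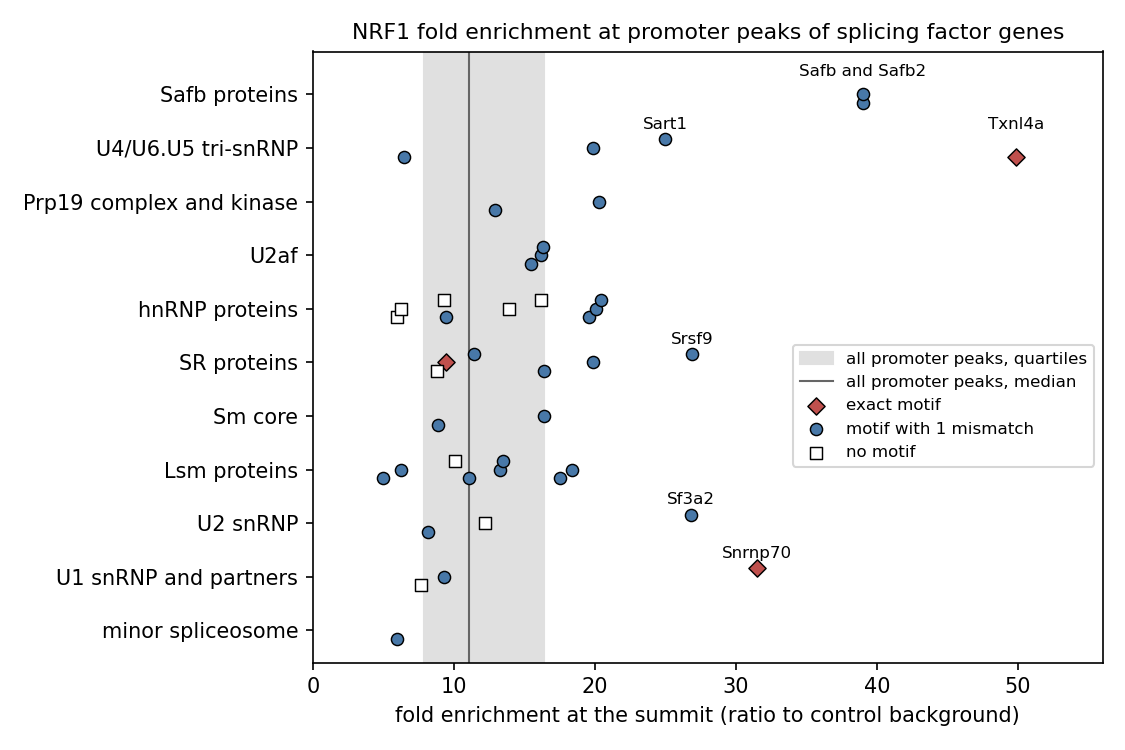
Each point is the strongest promoter peak of 1 gene, placed by fold enrichment (ratio, linear axis) and role group, with the motif within 100 bp of the summit shown by symbol; the grey band and line are the quartiles and median of all promoter peaks. Txnl4a (49.9), Safb and Safb2 (39) and Snrnp70 (31.5) stand to the right of all other genes.

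In the group taken here as the U4/U6.U5 tri-snRNP, 4 of 14 genes had a promoter peak. Among its 11 genes with a CpG-rich start, 4 had a peak, against 24.3% of all such genes. Further tri-snRNP proteins outside the chosen families are counted below with other U1 and U2 proteins. Txnl4a, which encodes a small U5 protein, had the highest fold enrichment of any promoter peak in the list, 49.9, in a peak of 382 bp on chromosome 18 from 80206584 to 80206965. Its −log10 q was 139, and its summit lay 37 bp before the start, 7.5 bp from the centre of the nearest motif copy. The peak held 2 copies, 1 of them exact, and also lay in the promoter of Gm16286. Txnl4b, its paralogue, had no peak in its promoter, and the nearest summit was 141542 bp away.

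Sart1, a tri-snRNP protein needed for its joining to the spliceosome, had a fold enrichment of 25 in a peak from 5388656 to 5389010 on chromosome 19, with the summit 108 bp before the start and −log10 q 61.7. At Prpf3, a U4/U6 protein, fold enrichment was 19.9 in the peak on chromosome 3 from 95855735 to 95856146, with the summit 11 bp before a start and −log10 q 68. Prpf6, which bridges U5 and U4/U6, had a weaker peak of 6.45. These values placed Txnl4a, Sart1 and Prpf3 above the upper quartile of all promoter peaks and Prpf6 below the lower quartile. The remaining 10 genes had no promoter peak, among them Prpf8 and Snrnp200, which encode the largest U5 protein and the helicase that unwinds U4/U6. The others were Prpf4, Prpf18, Prpf31, Prpf38a, Prpf38b, Snrnp27, Snrnp40 and Txnl4b.

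Of the 6 genes of the U1 snRNP and its partners, 3 had a promoter peak. All 6 had a CpG-rich start, and the share was 50%, against 24.3% of all genes with such a start. Snrnp70, the U1 protein that contacts the U1 RNA and SR proteins, had a fold enrichment of 31.5 and a −log10 q of 88.9 in a peak of 702 bp on chromosome 7 from 45395494 to 45396195. Its summit was 38 bp before the start, and the window around it held 3 motif copies, 2 of them exact, the most at any splicing factor gene. Prpf39 and Prpf40b, which associate with U1, had values of 9.29 and 7.7. At Prpf39 the motif centre was 1.5 bp from the summit, and at Prpf40b no motif was found at a GC content of 84.1%. The other U1-specific proteins, encoded by Snrpa and Snrpc, had no promoter peak. Of the 3 genes for proteins specific to the U1 particle, 1 thus had a peak.

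At the U2 snRNP, 3 of 11 genes had a promoter peak. Among the 9 with a CpG-rich start 3 had one, against 24.3% of all such genes. Sf3a2, a subunit of the SF3a complex, had a fold enrichment of 26.8 in a peak of 888 bp on chromosome 10 from 80798150 to 80799037, with −log10 q 77.1 and the summit 52 bp before the start. It also lay in the promoter of Plekhj1. The peak at Sf3b1, whose product clamps the branch point, had a value of 12.2 and no motif with at most 1 mismatch. Snrpb2 had a value of 8.19. No promoter peak was present at Sf3a1, Sf3a3, Sf3b2, Sf3b3, Sf3b4, Sf3b5, Sf3b6 and Snrpa1, so SF3a and SF3b each had 1 gene with a peak.

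The genes of U2af, the factor that reads the 3′ splice site before U2 arrives, all had a promoter peak, and their values were close to each other. Fold enrichment was 16.3 at U2af1, whose product contacts the AG at the intron end, 16.2 at U2af2, whose product binds the pyrimidine tract, and 15.5 at U2af1l4, a paralogue of U2af1. Each peak held 1 copy of the motif with 1 mismatch, in 3 different forms as printed above. The copy was centred 9.5 bp from the summit at U2af1, 57.5 bp at U2af1l4 and 77.5 bp at U2af2. The median distance over splicing factor peaks with the motif was 13 bp. Positions of the 3 peaks differed. Summits lay 128 bp before a start at U2af1, 84 bp at U2af1l4 and 812 bp at U2af2, the most upstream of any splicing factor gene. U2af1l4 shared its peak with Psenen, on the opposite strand.

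Of the 8 Sm core genes, 2 had a promoter peak. This share of 25% was the lowest of the role groups, against 13.4% of all genes. Among the 7 with a CpG-rich start 1 had a peak, against 24.3% of all such genes. Snrpd2 had a fold enrichment of 16.4 in a promoter shared with Qpctl. At Snrpn, an imprinted gene whose promoter it shares with Snurf, the value was 8.9 with the summit 9 bp after the nearest of 6 starts, and no start was CpG-rich. Snrpb, Snrpd1, Snrpd3, Snrpe, Snrpf and Snrpg had none. The nearest summit to Snrpd1 was 7547 bp before its start, and at the other 5 genes it was at least 25080 bp away.

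Among Prp19 complex and kinase genes, Cdc5l, a core protein of that complex, had a fold enrichment of 20.3 in a peak of 661 bp on chromosome 17 from 45433161 to 45433821. Its −log10 q was 49.6, and the summit lay 54 bp after the start. The only motif copy there was centred 87.5 bp from the summit, outside the promoter window. Prpf4b, a kinase of spliceosomal proteins, had a value of 12.9, and Prpf19 had no promoter peak. In the minor spliceosome, which removes a rare class of introns, Snrnp25 had one of the 3 lowest values, 5.97. Its peak was on chromosome 11 from 32205322 to 32205545 (−log10 q 8.63). The summit lay 14 bp after the start, with the motif 0.5 bp from it. Snrnp35 and Snrnp48 had no promoter peak.

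Lsm genes had a promoter peak in 8 of 13 cases, with fold enrichments from 4.97 to 18.4 and a median of 12.2. All 13 had a CpG-rich start, and the share was 61.5%, against 24.3% of all genes with such a start. In the ring that binds the end of U6, made by Lsm2 to Lsm8, values were 17.5 at Lsm2, 4.97 at Lsm4, 18.4 at Lsm7 and 13.3 at Lsm8, whereas Lsm3, Lsm5 and Lsm6 had no promoter peak. The value at Lsm4 was the lowest of the 43 genes, in a peak on chromosome 8 from 70673043 to 70673302 with −log10 q 9.74 and the summit 80 bp before the start. Lsm1, which takes the place of Lsm8 in the cytoplasmic ring for mRNA decay, had 2 weak peaks of 6.26 and 5.17. Lsm10 and Lsm11, which belong to the U7 snRNP and act in histone mRNA processing rather than splicing, had values of 11.1 and 10.1. Lsm14b had 13.5, and its paralogue Lsm14a had no promoter peak, as was also the case for Lsm12.

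Of the 11 genes of SR proteins, 6 had a promoter peak. All 11 had a CpG-rich start, and the share was 54.5%, against 24.3% of all genes with such a start. Srsf9 had a fold enrichment of 26.9 in a peak on chromosome 5 from 115326917 to 115327256, with −log10 q 68.4 and the summit 96 bp before the start. At Srsf2, which binds exonic enhancers, the main peak had a value of 19.9 on chromosome 11 from 116853038 to 116853377, with −log10 q 73.9 and the summit 147 bp before the start. A second peak upstream of it had 4.94, the lowest of the 45 peaks, and the main peak also lay in the promoter of Mfsd11. Values were 16.4 at Srsf7, 11.4 at Srsf4, 9.44 at Srsf11 and 8.77 at Srsf10. Srsf11 had the exact palindrome, yet its value was under the median of all promoter peaks. Srsf10 had no motif with at most 1 mismatch. Srsf1, Srsf3, Srsf5, Srsf6 and Srsf12 had no promoter peak.

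For the 21 genes of hnRNPs, abundant proteins that coat pre-mRNA, 9 had a promoter peak. Among the 18 with a CpG-rich start 8 had one, against 24.3% of all such genes. Hnrnpa1 had a fold enrichment of 20.4 in the widest peak of the set, 905 bp on chromosome 15 from 103239516 to 103240420, with −log10 q 95.6. Its summit lay 502 bp before the start, and the peak also lay in the promoter of Cbx5 on the other strand. Hnrnpm followed with 20.1 (chromosome 17 from 33685072 to 33685554, −log10 q 51, summit 10 bp after the start) and Hnrnph1 with 19.6. These 3 genes and Hnrnpf (9.44) had the motif within 100 bp of the summit.

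The other 5 did not, and their values were 16.2 at Hnrnph3, 13.9 at Hnrnpu, 9.3 at Hnrnpab, 6.26 at Hnrnpl and 5.94 at Hnrnpd. The peak at Hnrnpd, among the 3 lowest genes, was on chromosome 5 from 99979013 to 99979307 with −log10 q 9.33 and the summit 186 bp before the start. At Hnrnpl the stronger peak, 52 bp after the start, had no motif, and a weaker one of 5.2 further upstream held the exact palindrome. No promoter peak was present at Hnrnpa0, Hnrnpa2b1, Hnrnpa3, Hnrnpc, Hnrnpdl, Hnrnph2, Hnrnpk, Hnrnpll, Hnrnpr, Hnrnpul1, Hnrnpul2 and Hnrnpa1l2-ps2. The last has a symbol of a pseudogene but a coding RefSeq transcript. Only uniquely mapped reads were kept, and how many reads could be mapped uniquely there was not tested.

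Safb and Safb2, which encode scaffold attachment factors that bind RNA and chromatin, are arranged head to head and shared a peak of 699 bp on chromosome 17 from 56584414 to 56585112. Its fold enrichment was 39, the fourth highest of all promoter peaks, and its −log10 q was 158. The summit was 151 bp before the Safb start and 246 bp before the Safb2 start, and 1 motif copy with 1 mismatch was centred 4.5 bp from it. Since a single peak served both, it cannot be assigned to either gene.

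Summits were close to the starts. The median summit of the 45 peaks lay at -80 bp from the nearest start of its gene, with quartiles of -147 and -23 bp, against a median of -51 bp with quartiles of -116 and -7 bp for 2556 promoter peaks of all protein-coding genes. Within 50 bp of a start lay 28.9% of the summits, against 45.6% of all, and within 200 bp 88.9% against 87.4%. These distances were not measured alike. For the 45 peaks, only starts of splicing factor genes were used. For all peaks, the closest start of any protein-coding gene with the peak in its promoter was used. Of the 45 peaks, 13 also lay in the promoter of another protein-coding gene. How much of the contrast within 50 bp came from this difference in measure was not tested. At 32 of the 43 genes the summit of the strongest peak was outside the gene, at 8 in an exon outside the coding part, at Srsf4 and Hnrnpf in an intron of at least 1 transcript, and at Hnrnpl in a coding exon.

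**Figure D3:**
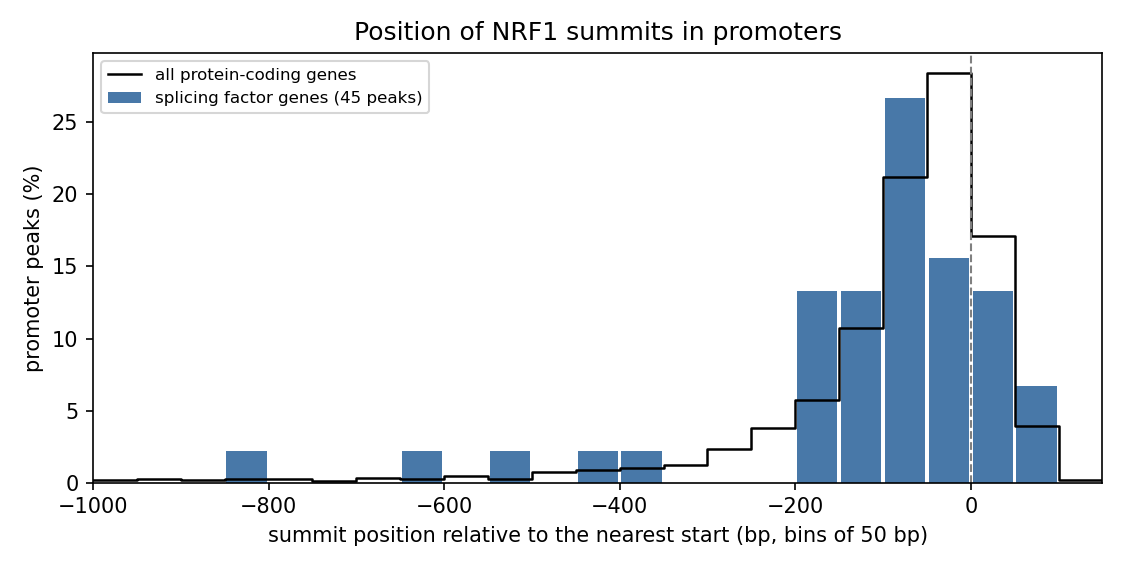
Bars give the percentage of the 45 promoter peaks of splicing factor genes in bins of 50 bp by distance of the summit from the nearest start of such a gene. The start is at 0 (dashed line), and negative values are upstream. The black line gives promoter peaks of all protein-coding genes, measured to the closest start of any gene that had the peak in its promoter. The bars are highest from 100 to 50 bp upstream, with a few isolated peaks further away, the farthest being U2af2 at -812 bp.

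The motif was then set against the peaks. At most 1 mismatch from the palindrome was found within 100 bp of 34 of the 45 summits, or 75.6% (Wilson 95% interval 61.3 to 85.8%), against 65.9% of all promoter peaks. The exact palindrome was present at 4 (Txnl4a, Snrnp70, Srsf11 and the weaker peak of Hnrnpl), or 8.89%, against 10.9% of all promoter peaks. Median fold enrichment was 16.2 at the 34 peaks with the motif and 8.77 at the 11 without it. For all promoter peaks these medians were 12.9 and 8.58. Motif centres were close to the summits, with a median distance of 13 bp, against 12.5 bp for all promoter peaks.

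The best copies at the 34 peaks took 8 forms, each read on either strand. GCGCAGGCGC was the most frequent with 12 peaks, or 35.3%, against 32.2% of all promoter peaks with a motif. GCGCACGCGC followed with 10, or 29.4% against 21.1%. The exact palindrome was at 4, or 11.8% against 16.6%. ACGCATGCGC was found at 3 peaks, Lsm2, Srsf7 and U2af1l4. The leading forms are those printed above for Safb and Sf3a2.

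Seen from the sequence, 35 of the 95 genes held the motif in the promoter, or 36.8%, against 12.1% of all protein-coding genes. Of these 35, 34 had a promoter peak, or 97.1% (Wilson 95% interval 85.5 to 99.5%). Among all 2548 protein-coding genes with a promoter motif the share was 75.4%. With a CpG-rich start as well, it was 32 of 33 splicing factor genes against 81.1% of all genes. The exception was Sf3b2, whose copy was centred at -138.5 bp from a start, with the nearest summit 93354 bp away. The exact palindrome was in the promoter of 4 splicing factor genes, and all 4 had a peak, against 89.4% of all genes with one. Of the 60 genes with no motif in the promoter, 9 had a peak, or 15%, against 4.81% of all such genes. With a CpG-rich start it was 9 of 52, or 17.3% (Wilson 95% interval 9.38 to 29.7%), against 9.5% of all such genes, which lies inside that interval. The 9 were Cdc5l, with its copy past the window, and Hnrnpab, Hnrnpd, Hnrnph3, Hnrnpu, Lsm11, Prpf40b, Sf3b1 and Srsf10.

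**Figure D4:**
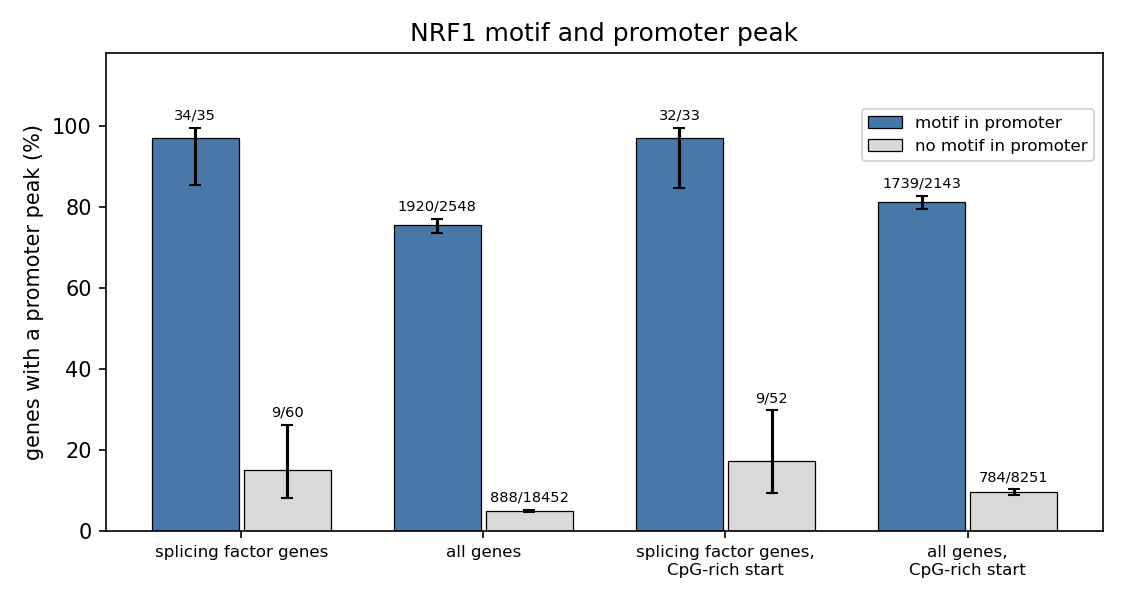
Bars give the percentage of genes with a promoter peak, split by whether the promoter holds the palindrome with at most 1 mismatch, for splicing factor genes and all protein-coding genes and for those with a CpG-rich start; error bars are Wilson 95% intervals over genes, and numbers are genes with a peak over genes in the class. With the motif, 34 of 35 splicing factor genes had a peak, and without it 9 of 60.

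Many splicing factor genes start back to back with another gene. A definition chosen after the values were seen, a protein-coding start on the opposite strand from 1000 bp before to 100 bp after a start, held for 28 of the 95 genes, or 29.5%, against 9.05% of all protein-coding genes. Of these 28, 11 had a promoter peak (39.3%), and of the 67 others 32 had one (47.8%). Over all genes the shares were 33.5% with such a neighbour and 11.4% without. Among genes with a CpG-rich start, 25.9% of splicing factor genes and 14.1% of all genes had such a neighbour. There the shares with a peak were 45.5% with a neighbour and 49.2% without it for splicing factor genes, and 35.8% and 22.4% for all genes. The share was higher with a divergent neighbour over all genes and not over splicing factor genes, a contrast that was not tested. Of the 45 peaks, 13 lay in the promoter of a further protein-coding gene (28.9%), against 12.1% of promoter peaks of protein-coding genes. Without the genes that shared a peak, 31 of 83 splicing factor genes had one, or 37.3%, against 10.8% of the remaining genes. This step takes out only genes with a peak and keeps divergent genes without one. It can therefore only lower a share, and it does not separate shared from single promoters.

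Peaks just past the promoter window were looked for in the 52 genes without a promoter peak. In 6 of them, or 11.5%, a summit lay from 101 to 1000 bp after a start, against 1.47% of all such genes. Among genes with no promoter peak and a CpG-rich start, it was 5 of 44, or 11.4%, against 2.46% of all such genes. Srsf1, an SR protein with many roles in exon choice, had a summit at 239 bp with a fold enrichment of 8.66, in an exon outside the coding part, with 2 motif copies. Lsm12 had a summit at 321 bp in an intron, with 8.24 and the exact palindrome. At Snrnp35, a minor spliceosome protein, the summit was at 387 bp with a value of 15.5, also in an intron. Hnrnpul2 (470 bp, 17.3) had its summit in the promoter of Ttc9c, and Srsf5 (653 bp, 18.4) in that of the non-coding gene Gm20337. Hnrnpdl had a summit at 743 bp with 7.84. Among the 43 genes with a promoter peak, 3 had a further peak in the same stretch, or 6.98%, against 1.42% of all 2808 genes with a promoter peak. Among those with a CpG-rich start it was 2 of 41, against 1.51%. The further summit was 392 bp after the start at U2af2 (8.58), 431 bp at Hnrnpl (11.5) and 482 bp at Hnrnpa1 (13). The one at Hnrnpl had a higher value than either of its promoter peaks. With the 6 genes that had no promoter peak, 49 of the 95 genes, or 51.6%, had a summit within 1000 bp of a start on either side, against 14.6% of all genes. With a CpG-rich start it was 54.1% against 26.1%. The remaining 46 genes without a promoter peak had their nearest summit further away, and with the read depth unknown, weak occupancy that missed the threshold and no occupancy look the same in this list.

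For the rest of the splicing machinery, a list of 100 symbols outside the chosen families was used, of which 99 matched a protein-coding gene. A promoter peak was present at 26, or 26.3% (Wilson 95% interval 18.6 to 35.7%), against 13.4% of all genes, and at 23 of the 85 with a CpG-rich start, or 27.1% against 24.3%. The median fold enrichment of these 26 peaks was 13.6. The 5 highest values were 28.4 at Sf1, which binds the branch point before U2, 28.4 at Srrm1, an SR-related coactivator, 24.1 at Bcas2 of the Prp19 complex, 23.1 at the helicase gene Ddx39b and 19.3 at Qk, a splicing regulator. By role, peaks were present at 6 of 18 genes of the Prp19 complex and activation, 5 of 12 of the exon junction and cap, 3 of 9 SR-like proteins and kinases, and 2 of 8 of the SMN complex, which loads Sm rings onto snRNAs. Helicases had 2 of 7, other U1, U2 and tri-snRNP proteins 5 of 25, and tissue splicing regulators 3 of 20, namely Qk, Khdrbs1 and Tia1. The muscle regulators Mbnl1, Celf1, Rbfox1 and Rbm20 were among those 17 without a promoter peak.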

How the data were processed

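ChIP-seq peaks of NRF1 from wild-type mouse skeletal muscle were deposited as 1 list in narrow-peak layout. As the study's methods state, the authors mapped single-end reads to mm10 with Bowtie, kept unique reads and called peaks with MACS2 against input DNA; pooling is not stated. The deposited values used were the fold enrichment, a ratio to the control background, and q-values on the −log10 scale. The deposited integer score, which the authors' peak caller derives from q, and the deposited p-values were not used. The methods name a blacklist of a human build and the broad option, whereas the list has the narrow layout. The authors excluded peaks over a false discovery rate of 0.01, yet 7 peaks in the list exceed it, with q up to 0.048. Duplicate removal can limit signal at the strongest sites, and unique mapping signal in repeats; neither was tested. The list is also not of the length that the study states for its NRF1 sites, and may be another version of them. Depth is unknown.

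Sequence and 45756 known transcripts came from RefSeq for GRCm38, the assembly of mm10. All known transcripts of a protein-coding gene gave starts. Scripts used Python 3.11.15, pysam 0.24.0 and scipy 1.17.1 and were checked on simulated data. Motif copies were matched within 100 bp of the summit, and the best copy had the fewest mismatches, then the smallest distance. With 1 peak list no test between samples was possible, so members are described by counts and medians beside those of all genes or promoter peaks. Members and lists were chosen with earlier results of these data known. Every member with a promoter peak is named, with full values for the 12 highest and 3 lowest in fold enrichment. The result for 1 gene is counted but not reported here by name.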

Additional observations from a re-analysis of the deposited data

How the results depend on the processing

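Of 29 alternative values for 4 counts, 28 stayed within 1.5 times the count reported. The number of splicing factor genes with a promoter peak ranged from 31, without genes that share a peak, to 47, with a window of 500 bp either side or of 2000 bp before to 500 bp after a start. Both windows added Hnrnpul2, Lsm12, Snrnp35 and Srsf1. The window of 500 bp either side left out the upstream peaks of U2af2 and Hnrnpa1, which stayed in the count through their peaks 392 and 482 bp after the start. With GENCODE M21 basic starts, 44 genes had a peak, with Srsf4 and Srsf10 lost and Hnrnpul2, Snrnp35 and Srsf1 gained. With the peak centre in place of the summit, Cdc5l and Hnrnpm were lost. With no mismatch allowed, the motif was present at 4 of the 45 peaks in place of 34, and at most 2 mismatches gave 42. The median fold enrichment, 13.3 as reported, lay between 12.9 and 13.5 under 5 alternatives. Leaving out each replicate was not run, since there is only 1 list, and no paired analysis was possible because both libraries form 1 group with 1 list. Since depth is unknown, the 52 genes without a promoter peak are described only as not called.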
